A study of Drosophila melanogaster with 2 samples.

Results

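The genes described here encode the nuclear subunits of the mitochondrial respiratory chain and ATP synthase of Drosophila melanogaster, and the data are sites occupied by the chromatin protein Ravus. Members were the protein-coding genes whose Ensembl symbol starts with ND-, COX followed by a digit, ATPsyn, UQCR or Sdh. This gave 88 of the 13968 protein-coding genes on the chromosome arms. They comprise 40 genes of complex I, 8 of complex II, 9 of complex III, 16 of complex IV and 15 of complex V. By symbol, 63 are canonical subunits, 24 are duplicates marked by a trailing L, L1 or L2, and 1, Sdhaf3, is an assembly factor of complex II. The transgenic flies expressed Ravus as a fusion with eGFP, the enhanced green fluorescent protein, and whole embryos were collected at 0 to 24 h. The study has 1 group of 2 biological replicates, with no second genotype, treatment or stage, and the labels do not state which promoter drives the fusion. The labels' description names an antibody against GFP, while their antibody field names Ravus. Embryos are a mixture of all tissues, so weak occupancy in many cells and occupancy in few cells cannot be told apart.

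The respiratory chain passes electrons from NADH and succinate through complexes I to IV to oxygen, pumping protons across the inner mitochondrial membrane. Complex V, the ATP synthase, uses that proton gradient to make ATP. Most subunits are encoded in the nucleus and a small set in the mitochondrial genome, so the complexes depend on coordinated expression of both. Several Drosophila subunits have duplicate genes, many of which are known for expression in the testis.

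Chromatin immunoprecipitation with sequencing (ChIP-seq) was deposited as 8 lists of peaks, with dm6 coordinates. For each replicate there is a ranked list, which includes weak peaks, and a short thresholded list. Both replicates together gave a conservative list, a further thresholded list, and 2 ranked lists behind them, called here the replicate-pair list and the second ranked series list. The thresholded lists held between 1450 and 1908 peaks, and the replicates' ranked lists held 52143 and 37242. Signal is the value given to each peak in the authors' lists, in units that no source used here states, so values are read within a list. The depth of the libraries is unknown, and absence of a peak can also mean a signal below detection. A promoter summit is a peak summit within 500 bp of any annotated start site of a gene. Ravus itself had a promoter summit 88 bp upstream of its start in the conservative list, with a signal of 91.3. Its signals in the ranked lists of replicates 1 and 2 were 32.9 and 53.3, and it was absent from the thresholded list of replicate 1.

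A total of 8 respiratory chain genes had a promoter summit in at least 1 of the 4 thresholded lists. They were ND-51, ND-24, ND-ASHI, ND-MWFE, ND-42 and ND-MNLL of complex I, COX8 of complex IV and ATPsynE of complex V. The peaks at ND-ASHI and ND-MWFE were the strongest of these. Every one of the 8 genes is a canonical subunit with a second gene starting on the opposite strand nearby. Sequences of 50 bp to either side of the series summit are printed for 5 of these windows, because the base composition at the summits is described further on. They were read from the RefSeq Release 6 genome, the dm6 sequence, on the plus strand, and capitals mark the longest run made only of A and T, or the first of them where runs of that length tie. The windows lie at chr2L:6062836-6062936 for ND-51, chrX:6679330-6679430 for ND-ASHI and chr3R:22027463-22027563 for ND-42. Those of ND-MNLL and COX8 lie at chrX:7893813-7893913 and chr3L:21539481-21539581.
ND-51: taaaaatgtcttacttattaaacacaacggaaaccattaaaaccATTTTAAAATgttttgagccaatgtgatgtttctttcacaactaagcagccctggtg
ND-ASHI: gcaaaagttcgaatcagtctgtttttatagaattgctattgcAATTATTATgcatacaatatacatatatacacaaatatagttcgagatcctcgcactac
ND-42: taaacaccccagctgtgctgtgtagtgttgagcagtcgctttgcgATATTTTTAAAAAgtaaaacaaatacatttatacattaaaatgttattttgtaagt
ND-MNLL: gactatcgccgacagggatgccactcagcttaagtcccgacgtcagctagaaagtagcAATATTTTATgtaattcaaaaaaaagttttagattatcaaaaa
COX8: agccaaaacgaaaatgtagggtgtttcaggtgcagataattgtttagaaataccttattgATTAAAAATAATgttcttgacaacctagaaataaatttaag

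Both complex I genes with the strongest peaks encode accessory subunits of its membrane arm. ND-ASHI, the counterpart of human NDUFB8, had a signal of 68.5 in replicate 1 and 163.5 in replicate 2. Its peak ranked 563 of 52143 and 171 of 37242 in the replicates' ranked lists, and 249 of 1474 in the conservative list, where its signal was 237.7. The summit lay on X, 262 bp upstream of the nearest ND-ASHI start site, and in an intron of Fum1, which encodes a fumarase of the tricarboxylic acid cycle. It lay 260 bp upstream of the nearest Fum1 start site, so the distances to both genes were almost equal. ND-MWFE, the counterpart of human NDUFA1, had signals of 94.2 in replicate 1 and 109.0 in replicate 2. Its ranks were 303 and 399, and its conservative signal of 201.3 ranked 339. That summit, on 2R, lay 169 bp upstream of ND-MWFE and 52 bp upstream of TppII, a tripeptidyl peptidase gene, in an intron of that gene, and the peak spanned chr2R:13158342-13158651. These were the members whose conservative signal exceeded the list's median of 132.

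Among the 7 nuclear genes for the conserved core of complex I, 2 had thresholded promoter summits (28.6%, exact 95% interval 3.67 to 71.0%). The share of 10.1% over all protein-coding genes lies within that interval. These 2 core genes were ND-51 and ND-24. Both encode parts of the module that takes electrons from NADH: the ND-51 protein carries the flavin and the ND-24 protein an iron-sulphur cluster. ND-51 had signals of 54.4 in replicate 1 and 43.6 in replicate 2, and was in all 4 thresholded lists, with a conservative signal of 102.5 at rank 1084. The replicate summits of ND-51 fell on the same base, 104 bp upstream of its start. The series summit lay between genes, 129 bp upstream of ND-51 and 103 bp upstream of CG13994. ND-24 had 65.0 in replicate 1 and 41.4 in replicate 2. It was in the thresholded list of replicate 1 and in the further series list, where its signal was 109.6, but not in the conservative list or that of replicate 2. This summit lay 105 bp downstream of the ND-24 start, in an intron, and 147 bp upstream of corolla, a gene of the synaptonemal complex. Of the other core genes, ND-23 was ranked in both replicates with signals of 23.8 and 24.3, and ND-20 in replicate 2 alone with 14.2. ND-75, ND-49 and ND-30 had no promoter summit in the ranked list of either replicate.

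Of the 27 canonical accessory genes of complex I, 4 had a thresholded promoter summit (14.8%, 4.19 to 33.7%), among them the strongest pair. The 10.1% of all protein-coding genes lies within that interval. ND-42, the counterpart of human NDUFA10, had signals of 39.7 and 46.7 and was in all 4 thresholded lists, at rank 1447 of 1474 in the conservative list. The series summit was intergenic, 196 bp upstream of ND-42 and 33 bp upstream of Cchl, which encodes the cytochrome c heme lyase that attaches heme to the electron carrier cytochrome c. In replicate 1 the summit lay closer to ND-42, at 124 bp from ND-42 and 105 bp from Cchl. ND-MNLL, the counterpart of human NDUFB1, had signals of 30.9 and 47.0 and passed a threshold in replicate 2 alone. Its summit lay 65 bp upstream of ND-MNLL in the second ranked series list and 129 bp upstream in replicate 2, where p115, a Golgi tether gene, was nearer at 104 bp. CG45089 has the same annotated span as ND-MNLL, so that peak cannot be assigned to either gene.

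The remaining pair were in complexes IV and V. COX8, a small subunit of cytochrome c oxidase, had signals of 28.4 in replicate 1 and 45.0 in replicate 2, and was in the thresholded list of replicate 2 and the further series list. There its signal of 71.2 ranked 1632 of 1653. The summit was intergenic, 84 bp upstream of COX8, and VhaM9.7-b, a proton pump subunit gene, starts 415 bp from COX8. ATPsynE, subunit e of the ATP synthase membrane part, had 40.1 in replicate 1 and 52.2 in replicate 2. It was in all 4 thresholded lists with a conservative signal of 92.7 at rank 1226. Its summit lay 27 bp downstream of its start, in the 5' UTR, and 285 bp upstream of Afti, an aftiphilin gene. Over the 8 genes, the replicates' summits were between 0 and 73 bp apart. Replicate 2 had the higher signal at 6 of them and replicate 1 at ND-51 and ND-24, on scales that need not match.

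**Figure D1:**
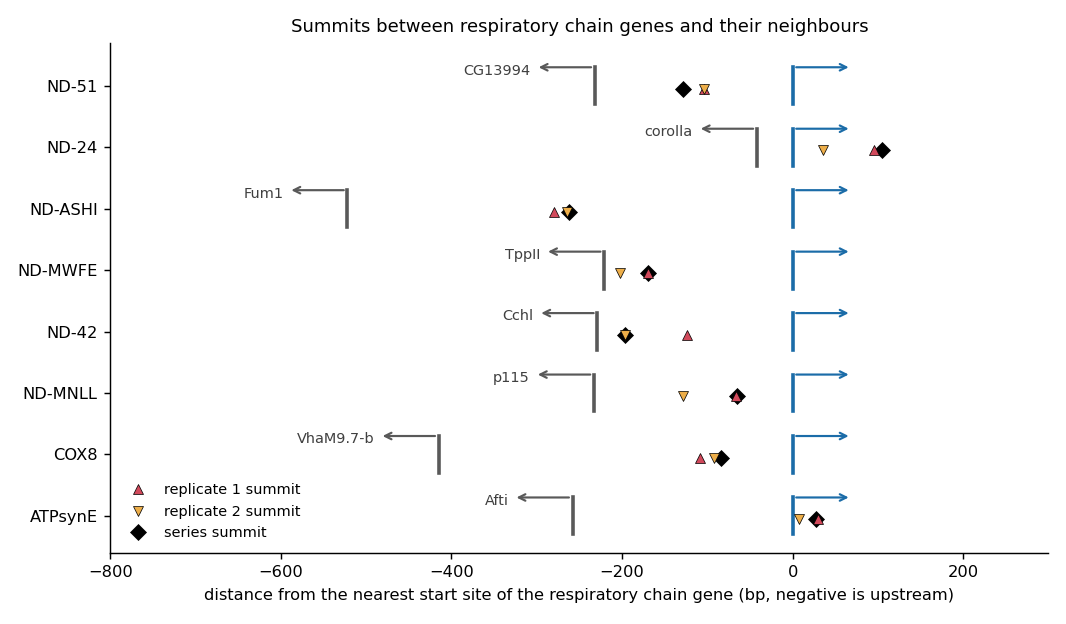
Summit positions at the 8 respiratory chain genes with a thresholded promoter summit, in bp from the start site of the respiratory chain gene (blue bar at 0, arrow in the direction of transcription), with the start of the neighbour in grey; triangles are the replicates' summits and diamonds the series summit in the second ranked series list. In 6 of the 8 genes the series summit lay between both starts, while at ND-24 and ATPsynE it lay 105 and 27 bp inside the gene.

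The share of respiratory chain genes with a promoter summit was close to that of all protein-coding genes in each thresholded list. In the conservative list 5 of 88 had one, or 5.68% (exact 95% interval 1.87 to 12.8%), against 7.09% of all protein-coding genes. The further thresholded list gave 7 genes, 7.95% against a background of 8.07%. In the thresholded list of replicate 1 there were 6 genes, 6.82% against 6.99%, and in that of replicate 2 there were 7, 7.95% against 8.82%. At least 1 thresholded list held 8 members, 9.09% (4.01 to 17.1%), against 10.1%. Intervals are Clopper-Pearson and cover counting error over genes only. The longer lists gave 17 members in the replicate-pair list, 19.3% against 22.2%, and 17 in the second ranked series list, against 22.0%. In the ranked list of replicate 1 there were 37 members, 42.0% (31.6 to 53.0%) against 45.1%, and in that of replicate 2 there were 31, 35.2% (25.3 to 46.1%) against 46.9%. Both replicates ranked 21 members, 23.9% against 29.5%, and at least 1 replicate ranked 47, 53.4% against 62.5%. Ranked in both means a promoter summit in each replicate's list, which need not be the same peak. The interval for replicate 2 lay below its background, and those of the other lists quoted here with an interval included theirs.

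**Figure D2:**
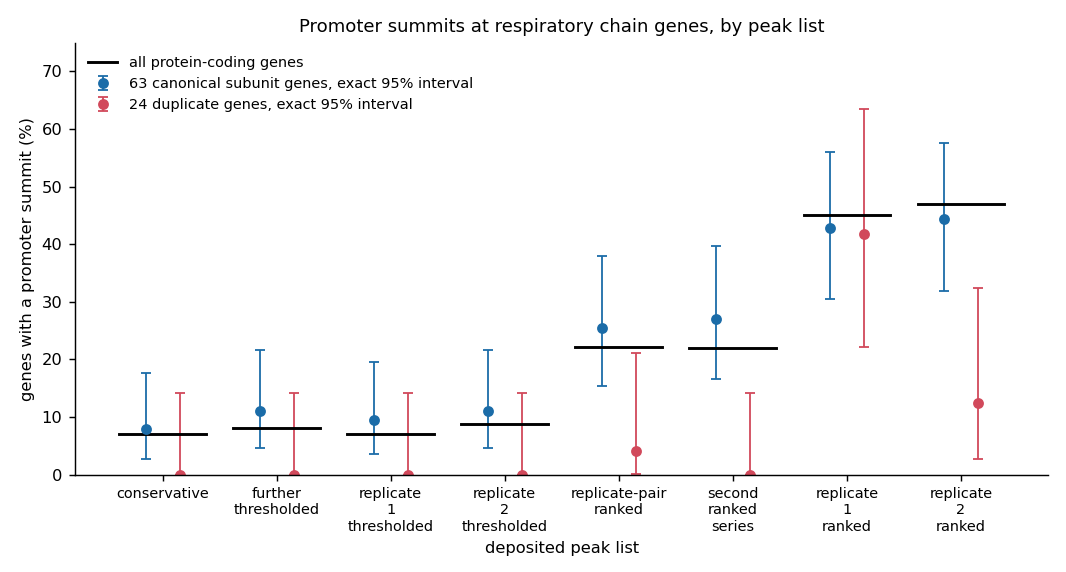
Percent of the 63 canonical subunit genes (blue) and the 24 duplicate genes (red) with a promoter summit in each deposited list, with exact 95% intervals over genes, and the percent of all 13968 protein-coding genes (black line). Duplicates were at 0 in all 4 thresholded lists and at 12.5% in the ranked list of replicate 2.

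By complex, thresholded promoter summits were found at 6 of 40 genes of complex I (95% interval 5.71 to 29.8%), 1 of 16 of complex IV and 1 of 15 of complex V. The 8 genes of complex II and the 9 of complex III had none, and these counts of 0 allow shares of up to 36.9% and 33.6%. The intervals of all complexes overlap, and each holds the share of 10.1% over all genes. In the ranked lists the order of the complexes differed between the replicates. Complex III, which includes the UQCR genes for the ubiquinol-cytochrome c reductase, had 4 of 9 genes ranked in replicate 1 and 1 in replicate 2, and none in both. Complex II, succinate dehydrogenase, had 3 of 8 and 2, and none in both. Complex IV had 7 of 16 and 5, with 5 ranked in both. Complex V had 6 of 15 and 9, and complex I had 17 of 40 and 14. All protein-coding genes had shares of 45.1% in replicate 1, 46.9% in replicate 2 and 29.5% in both. The 95% interval of each complex holds these shares. Canonical genes alone had 1 of 4 and 1 in complex II, and 2 of 6 and 1 in complex III. They had 6 of 8 and 5 in complex IV, and 4 of 11 and 7 in complex V.

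SdhA, the flavoprotein subunit of complex II, was the member just outside the 500 bp limit. A thresholded peak lay 949 bp upstream of it with a conservative signal of 136.5 at rank 693, and signals of 62.7 and 75.1 in the replicates. The start site of cer, a protease inhibitor gene, was nearer to that summit, at 148 bp.

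Below the thresholds, the best ranked member was ATPsynCF6, coupling factor 6 of the ATP synthase, with signals of 32.9 in replicate 1 and 23.0 in replicate 2. Its rank lay 3.82% and 20.0% from the top of the replicates' lists. ATPsyngamma, the central rotor stalk, had 24.3 and 17.0, and ATPsynbeta, the catalytic subunit, had 32.9 in replicate 2 and no promoter summit in replicate 1. In complex I, ND-SGDH had 24.2 and 24.9, while ND-B17 had 7.82 and 32.8, at 94.9% and 8.21% from the top. COX5A had 21.4 and 30.7, COX5B had 21.1 and 27.8, and UQCR-Q, a small complex III subunit, had 26.7 in replicate 2 alone. Thus the order of the unthresholded members was not the same in both replicates. Over the 21 members ranked in both, Spearman's rho of the signal across genes was 0.75, and over all 4115 such protein-coding genes it was also 0.75. These points share the libraries, and genes are not independent replicates. The strongest promoter summit of each list was used, so the paired peaks need not be the same. At COX7C the summits lay at chr2R:10048469 in replicate 1 and chr2R:10049616 in replicate 2. At ND-13B they lay at chr3L:10694522 and chr3L:10693720. The remaining 41 members had no promoter summit in the ranked list of either replicate. They were 21 genes of complex I, 3 of complex II, 4 of complex III, 9 of complex IV and 4 of complex V.

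**Figure D3:**
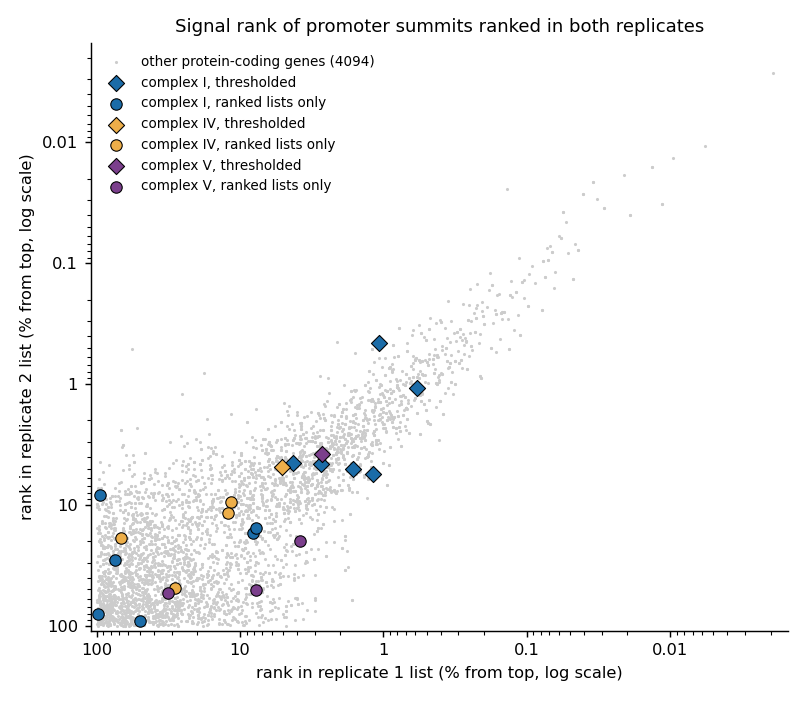
Rank of the strongest promoter summit in the ranked lists of replicate 1 and replicate 2, as percent from the top on log scales with the strongest at the upper right, for the 21 members ranked in both (coloured by complex, diamonds for the 8 with a thresholded summit) and other protein-coding genes (grey). The diamonds lie between 0.459% and 5.57% from the top of both lists, with ND-ASHI and ND-MWFE furthest to the upper right.

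The members with a ranked promoter summit had a median rank 28.3% from the top in replicate 1 and 18.7% in replicate 2. All protein-coding genes with one had medians of 26.1% and 26.3%. For canonical subunits the medians were 12.2% and 16.3%, over 27 and 28 genes. For duplicates they were 36.3% and 53.1%, over 10 and 3 genes. The members' signals ranged from 7.24 to 94.2 in replicate 1 and from 11.6 to 163.5 in replicate 2.

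No duplicate gene had a thresholded promoter summit, against 8 of 63 canonical subunits (12.7%, 5.65 to 23.5%). The count of 0 of 24 allows a share of up to 14.2%, which includes both the canonical share and the share over all genes. In the ranked list of replicate 1, 10 of 24 duplicates (41.7%, 22.1 to 63.4%) and 27 of 63 canonical genes (42.9%, 30.5 to 56.0%) had a promoter summit. In that of replicate 2 the counts were 3 of 24 (12.5%, 2.66 to 32.4%) and 28 of 63 (44.4%, 31.9 to 57.5%). The intervals of the canonical and duplicate shares overlap widely in replicate 1, and in replicate 2 only from 31.9 to 32.4%. All protein-coding genes had shares of 45.1% in replicate 1 and 46.9% in replicate 2. The duplicate interval of replicate 2 lies below that share, and the other intervals of either replicate include theirs. Both replicates ranked 1 of 24 duplicates (4.17%, 0.105 to 21.1%) and 20 of 63 canonical genes (31.7%, 20.6 to 44.7%), against 29.5% of all. These differences were not tested. ATPsynepsilonL was the only duplicate ranked in both replicates, with signals of 16.0 and 16.6. The strongest duplicate peak in replicate 1 was at SdhAL, with 19.3, and in replicate 2 at SdhBL, with 17.8. Peaks of duplicates in replicate 1 reached down to 7.31 at ND-B14.5AL, near the lowest signal of that list, 6.88.

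Set beside parents with a thresholded summit, the duplicates had little or no peak. Those parents were picked by their own signal, so these pairs do not stand for all 24. ND-51 had signals of 54.4 and 43.6, while its duplicate ND-51L1 had no promoter summit in either ranked list and ND-51L2 had 7.41 in replicate 1 alone. ND-24L had none, beside 65.0 and 41.4 at ND-24. COX6AL and COX6AL2 had none, beside 61.4 and 64.0 at their parent levy, the complex IV subunit 6A gene. The reverse was also seen, at low signal. In replicate 1, 8 of the 24 duplicates had a promoter summit where the parent had none, with signals from 7.31 at ND-B14.5AL to 19.3 at SdhAL, and in 7 pairs the parent alone had one. In replicate 2 the duplicate alone had one in 2 pairs and the parent alone in 12. SdhCL, ND-20L and ATPsynGL changed sides: the duplicates had 17.3, 16.6 and 17.1 in replicate 1 alone, and their parents SdhC, ND-20 and ATPsynG had 11.9, 14.2 and 16.2 in replicate 2 alone. Of the 21 distinct parent genes 3 had a thresholded summit (14.3%, 3.05 to 36.3%), and of the 45 canonical members with no duplicate 6 had one (13.3%, 5.05 to 26.8%). Both intervals include the 10.1% of all protein-coding genes.

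**Figure D4:**
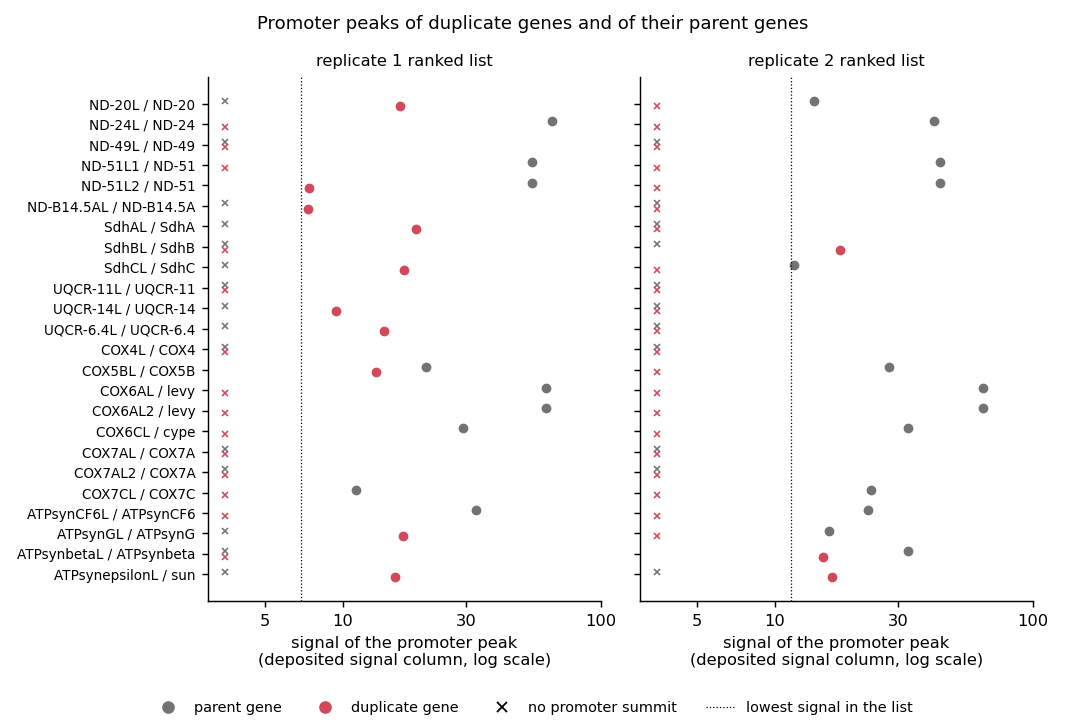
Signal of the promoter peak (log scale, deposited signal column) at each of the 24 duplicate genes (red) and its parent (grey) in the ranked list of each replicate, with crosses at the left for genes with no promoter summit and a dotted line at the lowest signal of the list. Red points reach 19.3 in replicate 1 and 17.8 in replicate 2, and the parents levy, ND-24 and ND-51 lie between 41.4 and 65.0.

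All 8 genes with a thresholded summit have a head-to-head neighbour, here a protein-coding gene on the opposite strand that starts 0 to 1000 bp upstream. Such a neighbour was present at 36 of the 80 other members, or 45.0% (33.8 to 56.5%). Canonical subunits have one in 40 of 63 cases (63.5%) and duplicates in 4 of 24 (16.7%, 4.74 to 37.4%), against 36.2% of all protein-coding genes. Among all genes with a thresholded promoter summit the share was 63.9%, which lies within the interval of the 8 members. There, 1 peak between a pair of starts counts for both genes. Read within each class, 8 of the 44 members with a neighbour had a thresholded summit, 18.2%, against 17.9% of all protein-coding genes with a neighbour. The 44 members without one had 0 (up to 8.04%), against 5.73% of such genes, which lies within that interval. The presence of a neighbour thus moved together with the split between canonical genes and duplicates, and its part in that split was not tested.

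At these shared promoters the nearest start was as often the neighbour's as that of the respiratory chain gene. In the series lists the respiratory chain start was the nearest, or shared the nearest position, at 4 of the 8 genes, ATPsynE, COX8, ND-24 and ND-MNLL, and the neighbour's start was nearer at the other 4. Where each summit was given only to the nearest start site, the conservative list held 1 member, ATPsynE (1.14%), against 5.11% of all protein-coding genes. Under that assignment the peaks of ND-ASHI, ND-MWFE, ND-51 and ND-42 went to Fum1, TppII, CG13994 and Cchl. With the replicates' summits ND-51 was nearest in both.

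Of the 13 members on X, 3 had a thresholded promoter summit, ND-ASHI, ND-24 and ND-MNLL (23.1%, 5.04 to 53.8%). Over all protein-coding genes on X the share was 9.11%, which lies within that interval. Of the 75 members elsewhere 5 had one (6.67%, 2.2 to 14.9%). The 10.1% over all protein-coding genes, X included, lies within that interval. The intervals for X and elsewhere overlap, and the difference was not tested.

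The summits of the bound members were poor in G and C. At the 5 conservative member summits the mean GC content within 50 bp of the summit was 30.3% (SD 2.68, n = 5 summits), against 45.3% in windows 300 bp to either side. Over the 689 distinct promoter summits of all protein-coding genes in that list it was 30.1% (SD 9.09), against 44.6% in the flanks. The 5 values ran from 25.7% to 32.7%. Over all 8 genes with a thresholded summit, measured at the series summit, they ran from 17.8% at ND-24 to 36.6% at ND-MNLL. The longest runs of A and T of these 8, printed in capitals for the 5 windows shown, were 9 to 16 bp long, and the median over the 689 summits was 12 bp. Members ranked in the replicate-pair list without a thresholded summit had 35.2% (SD 12.5, n = 9), against 40.8% over 1370 such summits of all genes. These 9 ran from 17.8% to 53.5%, with a median of 32.7%. COX5B was the highest of them, and its window is shown as that extreme. It lies at chr2L:6557492-6557592, with 53.5% GC at the summit and 29.7% in its flanks.
COX5B: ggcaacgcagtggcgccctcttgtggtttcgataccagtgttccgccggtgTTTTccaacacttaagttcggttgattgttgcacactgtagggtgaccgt

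**Figure D5:**
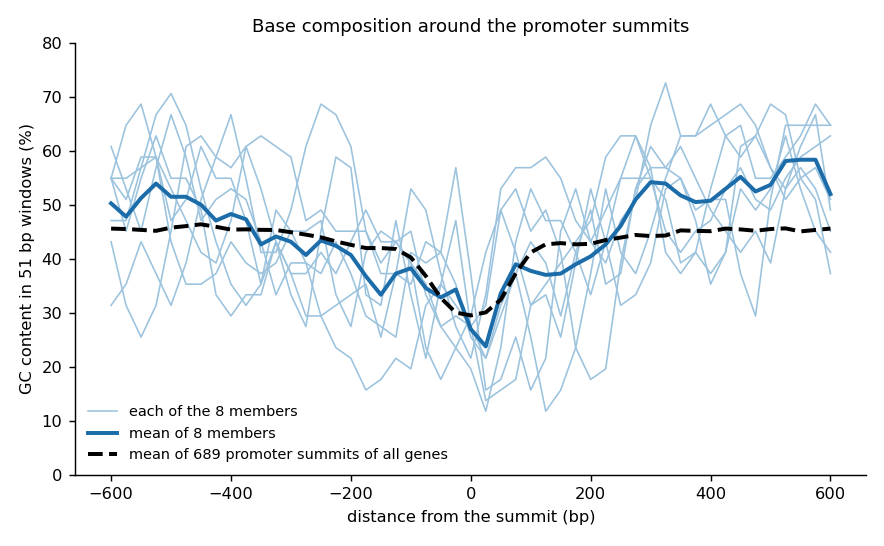
GC content in 51 bp windows by distance from the series summit, for the 8 members with a thresholded summit (thin lines, thick blue mean) and the mean of 689 promoter summits of all protein-coding genes in the conservative list (dashed). Both means are lowest near the summit, and the single genes vary widely to either side.

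Motifs known from Drosophila promoters were looked for on both strands of the summit windows. A match is a description of the letters only. TATAAA was present in 3 of the 8 windows, against 29.3% of the 689 promoter summits of all genes, and the E-box CANNTG was in 2 of 8 against 28.6%. The nuclear respiratory gene element, known from Drosophila mitochondrial genes, was searched as TTACATAA, TTACGTAA, TTATATAA and TTATGTAA. The third of these spellings can overlap TATAAA. The element was found in 1 window, at ND-MNLL, as TTATGTAA, 14 bp from the summit, against 4.64% of all summits. Ohler motif 7, a core promoter motif, was in 2 of 8 windows, those of ND-MNLL and ND-MWFE, against 1.16%. The 689 summits are from the conservative list, which does not hold COX8, ND-24 or ND-MNLL, so these sets are not alike. The differences were not tested.

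In promoter windows from 250 bp upstream to 50 bp downstream of the start, canonical subunits and duplicates are given side by side, with no test of the difference. A count of 0 of 24 duplicates allows a share of up to 14.2%, which includes the share over all promoters for each motif at 0 here. The canonical shares of Ohler motifs 7 and 1 and of the DRE lie above that limit, and carry no interval here. Ohler motif 7 was in 11 of 63 canonical promoters (17.5%), no duplicate promoter and 9.28% of all promoters. Ohler motif 1 was in 13 canonical promoters (20.6%) and no duplicate, against 4.49% of all. Ohler motif 6 was in 6 canonical promoters (9.52%) and no duplicate, against 2.23%. The DRE, TATCGATA, was in 9 canonical promoters (14.3%) and no duplicate, against 9.36%. The nuclear respiratory gene element was in 5 canonical promoters (7.94%) and no duplicate, against 5.18%. GAGAG went the other way, with 15.9% of canonical and 41.7% of duplicate promoters against 29.7% of all. TATAAA was in 61.9% of canonical and 37.5% of duplicate promoters against 45.8% of all, and the E-box in 74.6% and 87.5% against 77.2%. Of the 8 promoters with a thresholded summit, 4 held Ohler motif 7, and all protein-coding promoters with such a summit held it in 17.0%.

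The chain has 10 further nuclear genes whose symbols fall outside the naming rule. Of these, 3 had a promoter summit in at least 1 thresholded list (95% interval 6.67 to 65.2%), and the same 3 were in all 4. The conservative list thus also held 3 of 10. Over all protein-coding genes the share was 7.09% in the conservative list and 10.1% in any thresholded list, and both lie within that interval. The share of all genes found in all 4 lists was not computed. Cyt-c-d, the cytochrome c gene known for its role in spermatogenesis, had signals of 81.6 and 189.7 and a conservative signal of 277.1 at rank 173. Its summit lay in an intron, 388 bp downstream of the start, and 154 bp upstream of CG31808, so CG31808 was the nearer start. Cyt-c-p, the other cytochrome c gene, had 27.9 in replicate 2 and no promoter summit in replicate 1, so in this pair the testis-type gene had the higher signal, the opposite order to the duplicates of ND-51, ND-24 and levy. The complex IV gene levy had 61.4 and 64.0, with the summit 105 bp upstream of levy and in the 5' UTR of wmd. The ATP synthase alpha subunit gene blw had 54.7 and 77.2, with a summit 199 bp upstream and no other protein-coding start within 500 bp. Cyt-c1, RFeSP and the rest had none in a thresholded list. The 13 subunit genes of the mitochondrial genome had none, and no list holds a peak on that genome.

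Among 22 assembly factors and carriers of the chain, 4 had a promoter summit in at least 1 thresholded list (18.2%, 5.19 to 40.3%), against 10.1% of all protein-coding genes, which lies within the interval. CIA30, which encodes an assembly factor of complex I, had the strongest peak of any gene described here, with signals of 428.7 in replicate 1 and 580.3 in replicate 2. In the conservative list its signal of 1000.3 ranked 5 of 1474. The summit lay midway between CIA30, 111 bp away, and CG7601, 109 bp away. Its window, at chr3R:29736804-29736904, is shown because no subunit gene came near this signal, and its GC content was 31.7%.
CIA30: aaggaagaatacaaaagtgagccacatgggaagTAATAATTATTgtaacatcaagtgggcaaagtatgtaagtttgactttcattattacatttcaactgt

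The other 3 were weaker. The gene l(2)37Bb, matched through its synonym FOXRED1, had a conservative signal of 131.2, was absent from the thresholded list of replicate 1, and shared its peak with Rpn3, a proteasome gene whose start was nearer at 20 bp. Ttc19, an assembly factor of complex III, had 87.8 in the further thresholded list and 61.4 in that of replicate 2, where Acn was nearer. Coa8, a complex IV factor, passed a threshold in replicate 2 alone, with 26.7 at 4 bp upstream of its start. In the ranked list of replicate 1 it had 23.2.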

How the data were processed

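Ravus-eGFP ChIP-seq of 2 biological replicates of whole embryos was analysed from 8 peak lists on dm6, with 4 thresholded and 4 ranked. Fragments were 200 to 800 bp, per the labels. The deposited lists hold a signal per peak on an unstated scale, a score computed from the irreproducible discovery rate (IDR), and in the ranked lists the −log10 of the IDR given by the authors. The aligner, peak caller and read numbers were not given in the sources used here.

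Start sites came from Ensembl release 115, whose gene positions were compared with the RefSeq Release 6 annotation before use. Each gene received the summit of highest signal within 500 bp of a start. Ranks are by signal within a list. No test was made, since there is 1 group, and shares carry exact 95% intervals. The assignment was tested on simulated data, and bedtools 2.31.1 gave the same 991 genes for the conservative list. Python 3.11.15, pandas 2.3.3 and SciPy 1.17.1 were used.

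Named genes were members with a thresholded summit, the member within 1000 bp, the 10 best ranked others, duplicates with a summit, genes sharing a peak and bound genes of the lists of related genes. These members and lists were chosen with earlier results of these data known, and the description of head-to-head neighbours was added after the peaks had been seen. Atpaf1 and Atpaf2 could not be matched by symbol. Alternatives were other windows, lists and assignments.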

Additional observations from a re-analysis of the deposited data

How the results depend on the processing

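No paired analysis was possible because there is 1 group. The count of 5 members in the conservative list was 2 when the peak itself had to overlap a start site, 2 with the stronger part of the peaks and 1 with nearest starts only. In these settings complex I, with 4, had 1, 2 and 0, and canonical subunits, with 5, had 2, 2 and 1. Complex V, with 1, had 0 with the stronger part of the peaks. Complex II, with 0, had 1 within 1000 bp, and complex IV, with 0, had 1 in the further thresholded list. Duplicates had 0 in every setting. With either replicate left out the members numbered 6 to 7, and complex IV 0 to 1. The background of 991 genes was 392 with overlap and 552 with the stronger peaks.

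In the ranked list of replicate 1 the 37 members were 58 within 1000 bp and 17 in either ranked series list. In that of replicate 2 the 31 members were 18 within 250 bp, 53 within 1000 bp and 17 in either ranked series list. For the replicates' ranked lists, counts over all protein-coding genes were not computed at 250 or 1000 bp. These changes are therefore not particular to the members as far as can be told. The median rank of members in replicate 1, 28.3% from the top, was 12.2% within 250 bp and 43.0% when ranked by −log10 IDR. Mean GC content at the conservative member summits, 30.3% within 50 bp, was 26.7% within 25 bp and 33.2% within 100 bp.

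Shares at this number of genes have wide intervals. The depth of both libraries is unknown, no control signal was analysed here, and a promoter summit between a pair of starts cannot be assigned to 1 gene. Expression was not measured.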
